A study of Mus musculus with 151 samples.

Results

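The subcortical maternal complex is a protein assembly beneath the surface of the growing mouse oocyte, and its genes were examined here in 7 RNA-seq tables of mice conceived naturally or by IVF. The members were taken by name and not by any measured value, though with earlier results of these data known. They are Nlrp5, Ooep, Tle6, Padi6, Khdc3 and Zbed3, which are 6 of the 35976 gene names in each table. All 6 had a row in every table. Transcripts of these genes accumulate while the oocyte grows, and their proteins are stored in the egg and inherited by the early embryo. Embryos of mothers that lack one of several members stall in early cleavage, which is why the genes are counted among the maternal effect genes. The complex and the fibrous cytoplasmic lattices of the oocyte depend on overlapping sets of proteins.

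Natural mice came from CF-1 females mated with B6/SJL males in a natural cycle and developed without embryo transfer, and IVF mice came from superovulated CF-1 eggs and B6/SJL sperm, with culture to the blastocyst and transfer to pseudopregnant females. Both groups therefore shared the cross of CF-1 with B6/SJL, while superovulation of the mother, fertilisation in vitro, culture and transfer came together in the IVF group and cannot be told apart here. Whole ovaries were sequenced at E18.5 (4 Natural and 6 IVF), at 12 weeks (4 and 5) and at 39 weeks (5 and 5). Primordial germ cells (PGCs) of female fetuses at E13.5 were sequenced as 100 cells per library (4 and 5 libraries), single oocytes at 12 weeks (36 and 40) and 39 weeks (9 and 10), and cumulus cells, the somatic cells around the ovulated oocyte, at 12 weeks (5 and 5). The adult females that gave oocytes and cumulus cells were themselves superovulated, in both groups. The study's methods place fetal collection at E18.5 for Natural and E19.5 for IVF pregnancies in one passage and at E18.5 for both in another, so age and conception cannot be told apart with certainty in the fetal ovaries. One Natural ovary of the 39-week group, replicate 5, carried a label of 40 weeks. Total counts per library ranged from 839781 in a 12-week oocyte to 43363799 in a 12-week ovary, and no pair of libraries in a group agreed within sampling noise.

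Values are CPM, the reads of a gene relative to a fixed total of reads, scaled by TMM within each table. Because every table was scaled on its own, levels set across tables are only approximate. A gene was called at a Benjamini-Hochberg adjusted p below 0.05 in edgeR's quasi-likelihood test over all genes tested in that table, and negative log2 fold changes are lower in IVF. The labels do not tie every library to its own animal or litter, so p-values measure the spread between libraries. In whole ovaries, fewer oocytes and less RNA per oocyte cannot be told apart from the RNA values alone. By staining whole fetal ovaries, the paper found that germ cell numbers did not differ between IVF and Natural. For both adult ages, the paper reported fewer follicles of the primordial, primary and secondary stages in IVF ovaries. How these numbers relate to the RNA values of the sequenced ovaries was not tested.

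Among the Natural groups, the medians of Zbed3, Ooep and Padi6 were well above those of every ovary, PGC or cumulus group in isolated oocytes of both ages, and Zbed3 stood highest. Nlrp5 and Tle6 had medians of 147 and 129 CPM in 12-week oocytes, nearer to the 90.8 and 88.2 CPM of E18.5 ovaries, and their ranges overlapped. Khdc3 in 12-week oocytes was close to its level in 12-week ovaries. Zbed3, which encodes a BED-type zinc finger protein found with the complex in oocytes, lies at chr13:95323612-95337841 in mm10. Its level in single 12-week Natural oocytes was 17672 CPM at the lowest, 28590.3 CPM at the median and 51205 CPM at the highest. Divided by the 2231 bases of its annotated exons, its mean ranked first or second of 26763 genes in every oocyte group, at 12838 CPM per kb in 12-week Natural oocytes. Its reads made up between 1.79% and 5.57% of all counts of a 12-week oocyte and between 2.49% and 7.90% of those of a 39-week oocyte.

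Per kb of exon, the other members followed well behind Zbed3 in 12-week Natural oocytes. Ooep, a KH-domain protein of the core of the complex, reached a mean of 456 CPM per kb, and Padi6, a peptidylarginine deiminase relative needed for the cytoplasmic lattices, reached 326 CPM per kb. Tle6, a Groucho-related partner of Ooep and Nlrp5, and Nlrp5, the NLR-family protein also known as MATER, lay close together at 39.0 and 31.1 CPM per kb. Khdc3, the KH-domain protein also known as FILIA, was lowest at 7.40 CPM per kb. The members of one protein complex thus differed widely in transcript level within the same oocytes.

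The same order did not hold in whole ovaries. In 12-week Natural ovaries the mean level was 52.8 CPM per kb for Zbed3, 25.8 for Padi6, 12.3 for Tle6, 8.37 for Khdc3, 7.32 for Ooep and 4.64 for Nlrp5. The median CPM in 12-week Natural oocytes was 241 times that in 12-week Natural ovaries for Zbed3, 62.9 times for Ooep, 12.4 times for Padi6, 6.31 times for Nlrp5, 3.63 times for Tle6 and 1.09 times for Khdc3, with the 2 tables scaled separately. Khdc3 was therefore at nearly the same median CPM in the 12-week oocyte as in the 12-week ovary, and the ranges overlapped (3.98 to 23.2 CPM in Natural oocytes and 10.5 to 26.5 CPM in Natural ovaries). Khdc3 also shares exons on the same strand with the annotated gene Gm20509, which had no row in any table, so its counts may hold reads of that gene or lack reads that could not be assigned.

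Among the Natural groups, each member had its highest median in 39-week oocytes, followed by 12-week oocytes, and neighbouring groups often overlapped. For Nlrp5 the medians ran from 205 CPM in 39-week and 147 CPM in 12-week oocytes to 90.8 CPM in E18.5 ovaries, whose ranges overlapped. Nlrp5 in 12-week ovaries, at 23.3 CPM, lay below all E18.5 ovaries and overlapped 39-week ovaries, at 11.3 CPM, while PGCs and cumulus cells had a median of 0. Padi6 had the same order in the oocytes and ovaries, from 1582 CPM in 39-week oocytes down to 31.2 CPM in 39-week ovaries. Ooep and Tle6 were already present in PGCs, with medians of 13.1 and 23.9 CPM in the Natural libraries, and Ooep in PGCs overlapped its range in the 12-week and 39-week ovaries.

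**Figure D1:**
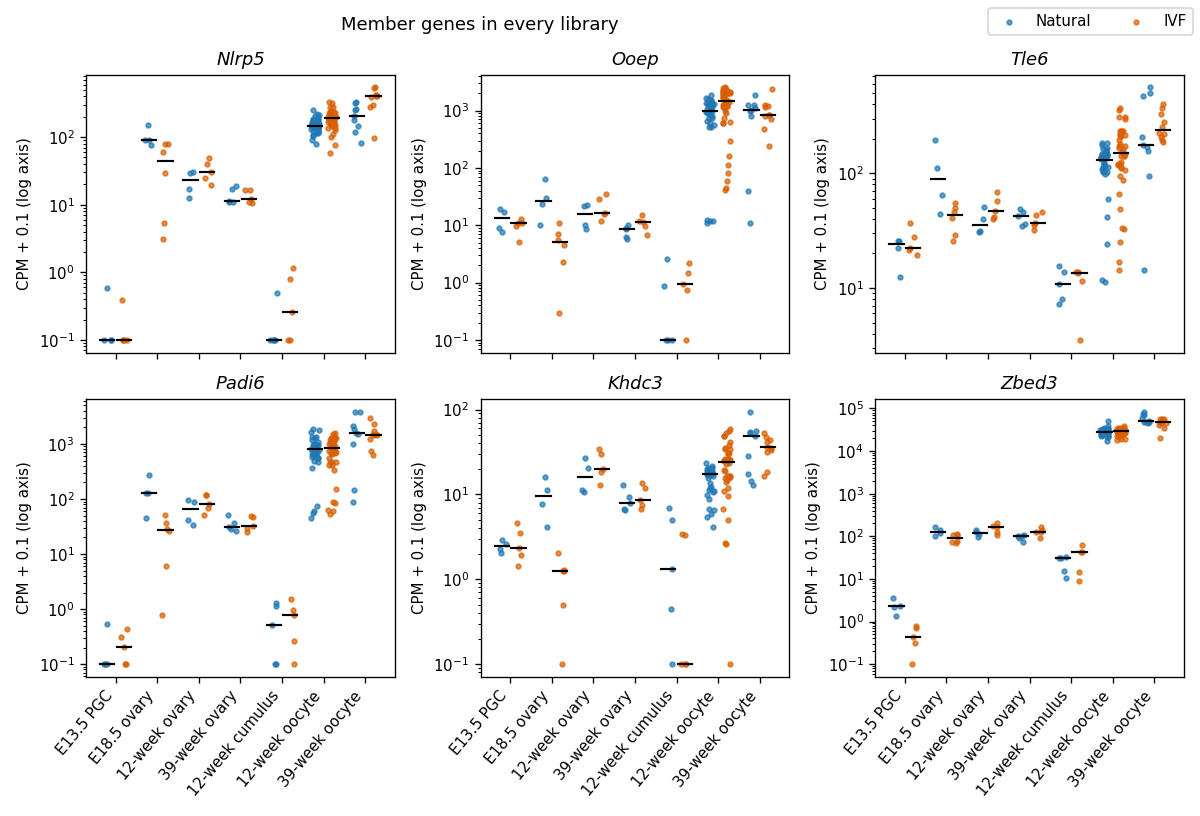
CPM of each member in every library of the 7 tables, plus 0.1 for the log axis, with Natural in blue, IVF in orange and a black bar at the group median. Within Natural and within IVF, oocytes of both ages have the highest medians for each member, Zbed3 reaches 84289 CPM in a 39-week oocyte, and some single oocytes lie far below the rest for Ooep, Tle6 and Padi6.

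In 12-week oocytes none of the 6 members passed the test between Natural and IVF. The 76 single-oocyte libraries were summed by set, taken from the first 2 fields of the library names, which gave 5 Natural and 5 IVF sets of 5 to 8 oocytes. No label says that a set is one female, and the first field of the set names never crossed the groups, so a collection effect and conception cannot be told apart. Over 14444 genes the edgeR test called 0.0277% (4 genes), 963 genes had an unadjusted p below 0.05, and DESeq2, which called 55 genes, also called 0 members.

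Khdc3 showed the largest difference among the members in 12-week oocytes. Its summed level was 19.1, 14.0, 18.3, 15.0 and 13.4 CPM in the Natural sets and 17.3, 22.7, 13.2, 33.1 and 38.3 CPM in the IVF sets. Of the IVF sets, 3 lay above all Natural sets and 1 lay below them. The log2 fold change was 0.64 ± 0.26 (SE, 95% confidence interval 0.08 to 1.21, p = 0.0292, edgeR adjusted p = 0.735).

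Nlrp5 was at 144, 134, 117, 177 and 181 CPM in the Natural sets and 175, 185, 139, 214 and 238 CPM in the IVF sets. Here 3 IVF sets exceeded every Natural set, and the ranges overlapped. Its log2 fold change was 0.34 ± 0.17 (SE, edgeR adjusted p = 0.775), with an interval of -0.02 to 0.70.

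Ooep was at 691, 897, 1378, 1360 and 778 CPM in the Natural sets and at 689, 1850, 616, 1650 and 1918 CPM in the IVF sets. The IVF sets thus fell on both sides of the Natural range. Tle6 had the same shape, with 3 IVF sets above and 2 below all Natural sets, at means of 125 ± 15.2 CPM in Natural and 164 ± 67.9 CPM in IVF (SD, n = 5 sets each). The log2 fold changes were 0.40 ± 0.33 for Ooep and 0.39 ± 0.25 for Tle6 (SE, edgeR adjusted p = 0.887 and 0.833).

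Padi6 and Zbed3 had fold changes near 0. Padi6 averaged 853 ± 309 CPM in the Natural and 789 ± 204 CPM in the IVF sets, and Zbed3 averaged 28318 ± 4417 CPM and 28014 ± 2467 CPM (SD, n = 5 sets each). Their log2 fold changes were -0.11 ± 0.26 and -0.01 ± 0.13 (SE, edgeR adjusted p = 0.966 and 0.992), and the interval for Zbed3 ran from -0.29 to 0.26. The median log2 fold change over the 6 members was 0.36, against 0.02 over all genes tested.

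**Figure D2:**
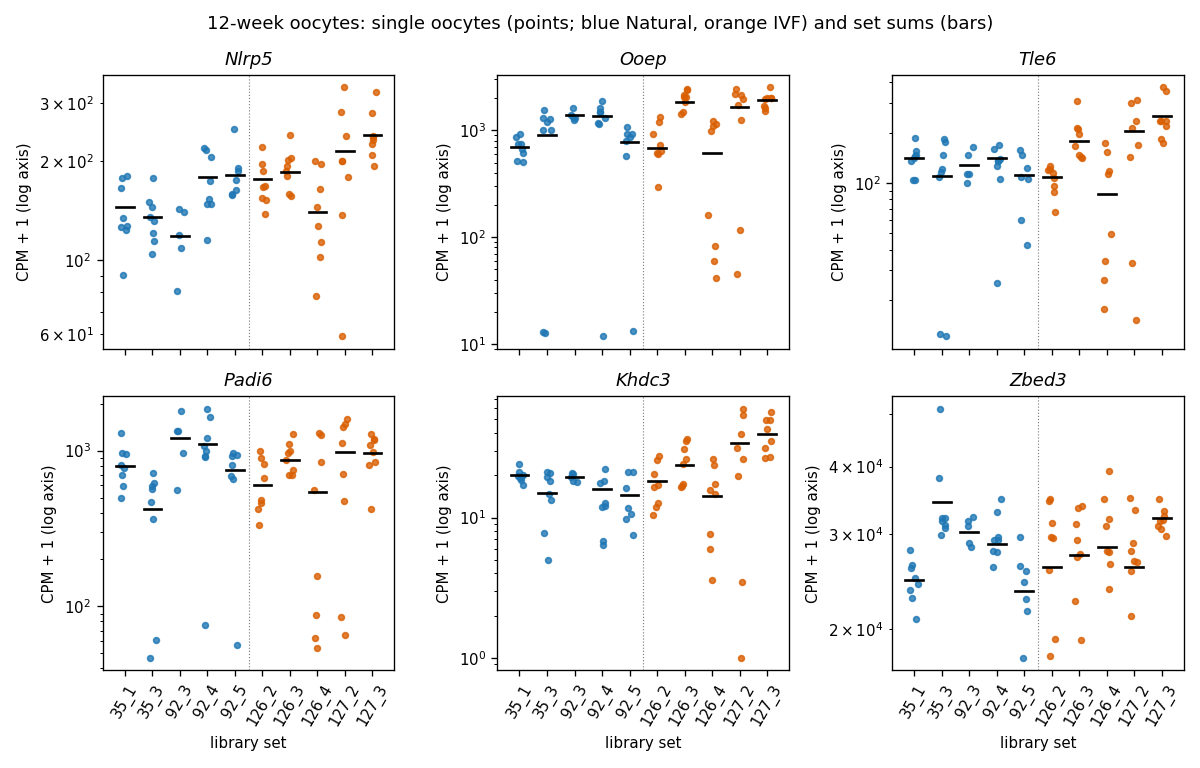
CPM of each member in the 76 single 12-week oocytes, plus 1 for the log axis, by library set, with Natural in blue, IVF in orange and a black bar at the value of the summed set. The spread within sets is wide for Ooep, Tle6 and Padi6, where the same 10 oocytes lie below all others, by the least for Tle6 (48.4 against 59.1 CPM), and narrow for Zbed3.

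Most of the variation among 12-week oocytes lay between oocytes of the same set. Of the total sum of squares in log2 CPM, the part within sets was between 60.2% for Nlrp5 and 77.8% for Ooep, and that between Natural and IVF ranged from 0.143% for Padi6 to 10.4% for Nlrp5. The SD within sets on the log2 scale was 1.76 for Ooep and 1.25 for Padi6, but 0.23 for Zbed3. Across the 76 oocytes, Spearman's rho was 0.81 between Tle6 and Khdc3 and 0.78 between Ooep and Tle6, while Zbed3 had values between -0.20 and 0.15 with the other members. These coefficients describe oocytes that share sets and libraries of differing depth, and rho with the total count was 0.37 for Khdc3 and -0.40 for Zbed3.

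The wide spread of Ooep came from a small number of oocytes, singled out after the values were seen. The 10 lowest 12-week oocytes for Ooep had 10.7 to 159 CPM, and the next had 295 CPM. The same 10 oocytes were also the 10 lowest for Tle6 (11.1 to 48.4 CPM, next 59.1 CPM) and for Padi6 (45.7 to 155 CPM, next 334 CPM). They were the 10 lowest as well for Gdf9, a growth factor that oocytes secrete (at most 471 CPM, next 9287 CPM), and for Mos, the kinase that holds the egg in meiotic arrest (at most 14.3 CPM, next 436 CPM). Spin1 and Btg4, also picked with their values in view, did not fall in this way. In these 10 oocytes Spin1 was at 20175 to 56264 CPM and Btg4 at 3173 to 11841 CPM. The next oocyte for Ooep, IVF 8, had 22278 and 5377 CPM of these genes. Ooep, Tle6 and Padi6 were thus low in the same single cells, together with Gdf9 and Mos but not with Spin1 or Btg4.

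The other members did not share this fully. Of those 10 oocytes, 8 were among the 10 lowest for Khdc3, 5 among the 10 lowest for Nlrp5 and 1 among the 10 lowest for Zbed3, which reached 51205 CPM in one of them. The 10 oocytes comprised 4 Natural and 6 IVF cells from 5 of the 10 sets, with at most 4 of 8 oocytes in a set, and their total counts ranged from 839781 to 4991194. Whether their depth had a part in the low values was not tested.

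In 39-week oocytes the largest ratio of means between Natural and IVF among the members was that of Nlrp5. Each library was a single cell, and the labels name no female, so no test was made and each group stands as 1 sample. Nlrp5 ranged from 83.1 CPM (median 205) to 325 CPM in 9 Natural oocytes and from 97.9 CPM (median 401) to 544 CPM in 10 IVF oocytes. Of the IVF oocytes, 7 lay above every Natural oocyte, and the lowest, IVF 7, was the shallowest library with 2820748 counts. The ratio of the mean CPM values, 381 ± 130 to 211 ± 86.4 (SD over oocytes), was 0.85 on the log2 scale. Across the 19 oocytes, Spearman's rho between Nlrp5 and the total count was 0.54. The median total count was 12276020 in Natural and 18035837 in IVF oocytes. The part of depth in the Nlrp5 difference was not tested.

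Nlrp5 was the 1 of 6 members past 1.5-fold, a share close to that of all genes. Of the 10940 genes kept in 39-week oocytes, 16.0% were higher in IVF by that much. Zbed3 ranged from 45560 CPM (median 50032) to 84289 CPM in Natural and from 20446 CPM (median 46856) to 56892 CPM in IVF oocytes. Its log2 ratio of means was -0.38, and 5 of 10 IVF oocytes lay below every Natural oocyte. Padi6, Khdc3, Ooep and Tle6 had log2 ratios of -0.19, -0.24, 0.10 and 0.04, with overlapping ranges. For Ooep the sign turned when medians were used in place of means, to -0.27 on the log2 scale.

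As at 12 weeks, a few 39-week oocytes stood apart for Ooep. Natural 6 and Natural 9 had 10.7 and 39.1 CPM of Ooep, and the next oocyte had 243 CPM. The same 2 cells were the lowest for Tle6 (at most 93.6 CPM, next 156 CPM), Padi6 (at most 146 CPM, next 629 CPM), Gdf9 (at most 637 CPM, next 10966 CPM) and Mos (at most 11.0 CPM, next 737 CPM). Neither was among the 2 lowest for Zbed3 or Khdc3. Spin1 was at 24544 and 11014 CPM and Btg4 at 5836 and 6126 CPM in Natural 6 and Natural 9. Both genes were lower in Natural 4, at 6273 and 3831 CPM. The total counts of Natural 6 and Natural 9, 12276020 and 18374296, were not low for this table. As both cells were Natural, they lowered the Natural means of Ooep, Tle6 and Padi6 used above. Their Nlrp5 values, 121 and 83.1 CPM, were below the Natural median of 205 CPM as well. The part of these 2 cells in the ratios of means was not tested.

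The largest differences between Natural and IVF were in fetal ovaries. At E18.5, 4 of the 6 members were called lower in IVF: Khdc3, Ooep, Padi6 and Tle6. Of all 16415 genes tested, 2.75% were called lower. Nlrp5 and Zbed3 had lower means in IVF without passing the test. The median log2 fold change of the 6 members was -1.95, and that of all genes was 0.000215. Around this stage oocytes become enclosed in primordial follicles, and most have not begun to grow.

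Khdc3, at chr9:73101836-73104438 on the plus strand, had the largest fold change. Its level was 7.65, 11.2, 3.98 and 15.9 CPM in Natural ovaries 1 to 4 and 1.17, 0, 1.16, 0.400, 1.96 and 1.18 CPM in IVF ovaries 1 to 6. The groups did not overlap, as was so for 4.33% of genes in the direction of lower IVF, and Khdc3 was the 1 member of which this held. The log2 fold change was -3.33 ± 0.57 (SE, edgeR adjusted p = 0.0129). It rested on 40 to 235 counts in Natural and 0 to 14 counts in IVF libraries, and the 0 in IVF ovary 2 allows no more than 3 counts.

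Ooep, at chr9:78376109-78378725 on the minus strand, was at 23.4, 29.2, 10.1 and 63.2 CPM in the Natural and at 7.00, 0.197, 5.48, 2.20, 10.9 and 4.51 CPM in the IVF ovaries. Only the lowest Natural ovary, replicate 3, fell within the IVF range. On the log2 scale the fold change was -2.66 ± 0.61 (SE, edgeR adjusted p = 0.0264).

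Padi6, at chr4:140727355-140742643 on the minus strand, had 126, 130.0, 44.4 and 271 CPM in Natural ovaries and 36.4, 0.688, 28.6, 5.90, 50.1 and 25.8 CPM in IVF ovaries. Natural 3 again lay within the IVF range and the other Natural ovaries above it. Padi6 had a log2 fold change of -2.55 ± 0.68 (SE, edgeR adjusted p = 0.0454).

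Tle6, at chr10:81590904-81601073 on the minus strand, changed less, from 65.0, 111, 44.0 and 196 CPM in Natural to 41.0, 25.7, 49.3, 28.9, 55.3 and 46.2 CPM in IVF. All IVF ovaries lay below all Natural ovaries other than replicate 3. The log2 fold change was -1.35 ± 0.34 (SE, edgeR adjusted p = 0.0366). Its annotation borders that of its relative Tle2, which had a log2 fold change of 0.84 ± 0.34 in these ovaries (SE, edgeR adjusted p = 0.151).

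Nlrp5, at chr7:23385889-23441922 on the plus strand, split the IVF ovaries. It was at 91.4, 76.7, 90.1 and 152 CPM in Natural and at 79.9, 5.21, 80.4, 3.00, 29.1 and 60.4 CPM in IVF. IVF ovaries 1 and 3 were within the Natural range, whereas IVF 2 and IVF 4 had 53 and 30 counts. With a log2 fold change of -1.25 ± 0.65 (SE, 95% confidence interval -2.65 to 0.16, edgeR adjusted p = 0.26) it was not called.

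Zbed3, the most abundant member in oocytes, differed least in the fetal ovary, at 130 ± 27.5 CPM in Natural and 92.3 ± 20.2 CPM in IVF (SD, n = 4 and 6). Its IVF values ran from 69.9 to 116 CPM and its Natural values from 101 to 164 CPM. The log2 fold change was -0.50 ± 0.17 (SE, edgeR adjusted p = 0.104).

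The same libraries were high or low for each of these genes. Natural 4 was the highest of the 10 ovaries for all 6 members, and IVF 2 or IVF 4 was the lowest for each. Natural 3 was the lowest Natural ovary for 5 members. Without 1 ovary at a time, Khdc3 was called each time (highest adjusted p = 0.0335), but the number of members called ranged from 1 to 4. It was 1 without Natural 2, Natural 4, IVF 4 or IVF 6, and 2 without IVF 1 or IVF 5. With both IVF 2 and IVF 4 left out, a setting chosen after seeing the data, 0 members and 5 genes were called in edgeR, and the adjusted p was 0.0583 for Khdc3, 0.0675 for Ooep and Padi6, and 0.147 for Tle6, at log2 fold changes of -2.86, -2.21, -2.05 and -1.14.

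**Figure D3:**
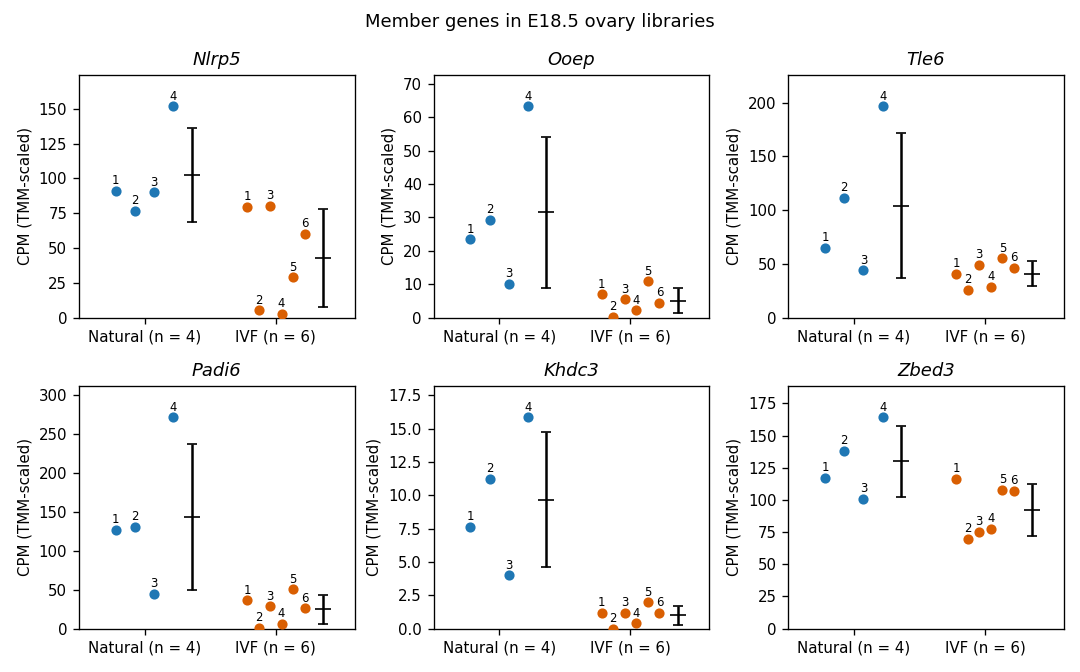
CPM of each member in the 10 E18.5 ovaries, numbered by replicate, with the mean and SD of each group beside the points. Natural ovary 4 is highest in all panels, IVF ovaries 2 and 4 lie near 0 for Nlrp5 (5.21 and 3.00 CPM), and the groups are apart for Khdc3.

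Sequences before a RefSeq start of the 3 members with the largest fold changes at E18.5 are shown because oocyte transcription factors bind such regions. They come from RefSeq in mm10, cut to bases outside annotated exons, and are written 5′ to 3′ on the strand of the gene, with the last base nearest the start. For Padi6 this is chr4:140742644-140742893 on the minus strand, for Khdc3 chr9:73102205-73102397 on the plus strand, and for Ooep chr9:78378726-78378838 on the minus strand. The Padi6 and Ooep sequences adjoin the annotated start of their gene. That of Khdc3 lies inside the annotated gene (chr9:73101836-73104438), before an internal RefSeq start, and is not the sequence upstream of the gene. Capitals mark matches on either strand to the E-box letters CANNTG, to TAATTG and to GGGCGG.
Padi6: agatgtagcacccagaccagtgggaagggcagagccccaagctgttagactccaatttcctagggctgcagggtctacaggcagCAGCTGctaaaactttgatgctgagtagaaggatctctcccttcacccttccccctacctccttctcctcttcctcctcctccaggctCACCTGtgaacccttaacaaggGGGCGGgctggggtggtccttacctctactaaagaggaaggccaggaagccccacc
Khdc3: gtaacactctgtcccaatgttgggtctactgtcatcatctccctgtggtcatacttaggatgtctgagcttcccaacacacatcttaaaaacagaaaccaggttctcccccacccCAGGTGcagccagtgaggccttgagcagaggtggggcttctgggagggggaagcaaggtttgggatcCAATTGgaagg
Ooep: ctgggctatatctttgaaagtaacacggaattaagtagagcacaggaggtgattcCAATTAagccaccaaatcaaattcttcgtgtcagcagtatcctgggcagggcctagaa
Padi6 held 2 matches to CANNTG and 1 to GGGCGG, Khdc3 held 2 to CANNTG, and Ooep held 1 to TAATTG, read here as CAATTA. Matches to CANNTG and GGGCGG are common. Of 32851 promoter windows, CANNTG was found in 66.2% at 250 bases and in 56.9% at 193 bases, and GGGCGG in 32.7% at 250 bases. TAATTG was less common, in 3.64% at 113 bases. The matches are descriptions of letters and not sites of binding.

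Genes known to act beside the members were examined in the same fetal ovaries. Of 5 partners of the complex and the lattices, 4 were tested, all had negative fold changes and 2 were called lower. Nlrp14, an NLR-family relative of Nlrp5, was at 39.6, 30.4, 10.4 and 66.8 CPM in Natural and at 8.84, 0.197, 4.32, 0.899, 15.8 and 5.15 CPM in IVF, which put IVF 2 and IVF 4 lowest here too. Its log2 fold change was -2.68 ± 0.70 (SE, edgeR adjusted p = 0.0412). Cfl1, the actin-severing protein cofilin that every cell uses, had a small fold change of -0.37 ± 0.09 on the log2 scale (SE, edgeR adjusted p = 0.0315).

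Of the oocyte growth genes, 3 of the 7 tested were called lower, and all 7 had negative fold changes, with a median of -1.94 on the log2 scale. Those called were Zp1 and Zp3, which encode proteins of the egg coat, and Gdf9. Zp1 was at 8.06, 10.7, 3.08 and 23.5 CPM in Natural and at 2.08, 0, 1.16, 0.600, 2.80 and 1.93 CPM in IVF ovaries, without overlap. Gdf9 and Zp3 had log2 fold changes of -2.14 ± 0.48 and -3.14 ± 0.81 (SE, edgeR adjusted p = 0.0256 and 0.0399).

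Of 7 germ cell markers tested, which germ cells carry before growth, 1 was called lower, Pou5f1, a pluripotency factor kept in germ cells, at a log2 fold change of -2.32 ± 0.53 (SE, edgeR adjusted p = 0.0264). The median of the list was 0.26 on the log2 scale. Its summed level was 172 to 335 CPM in Natural and 211 to 372 CPM in IVF ovaries, and the RNA-binding protein gene Dazl had a fold change of 0.65 ± 0.23 (SE, edgeR adjusted p = 0.102). None of the 6 oocyte transcription factors was called, with a median of -0.46. Figla and Nobox, which activate oocyte genes at this stage, had fold changes of -0.58 ± 0.37 and -0.50 ± 0.38 (SE, edgeR adjusted p = 0.358 and 0.444).

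Other maternal effect genes had no common direction. Of 12 tested, Btg4, an adaptor for maternal mRNA decay, was called lower at -2.93 ± 0.57 on the log2 scale, and Tet3 and Dnmt3a, enzymes of DNA methylation that somatic cells also use, were called higher at 0.63 ± 0.14 and 0.47 ± 0.12 (SE, edgeR adjusted p = 0.0158, 0.0262 and 0.04), where 2.67% of all genes were called higher. Among 12 relatives of the members, Dppa5a, a KH-domain relative of Khdc3 and Ooep, was lower at -1.95 ± 0.51 and Zbed6, a relative of Zbed3, was higher at 1.25 ± 0.21 (SE, edgeR adjusted p = 0.0411 and 0.0129). Of the 6 erythroid markers, which mark red blood cells, 2 were called higher (Alas2 and Hbb-bs), all 6 had positive fold changes, and their sum was 598 to 1596 CPM in Natural and 1598 to 4571 CPM in IVF ovaries. Of the 6 luteal and theca markers, 3 were called higher and 5 had positive fold changes. All 4 endothelial markers had negative fold changes, and 1 was called lower. None of the granulosa, cumulus, oviduct and epithelium, immune or stroma markers was called. The part of blood RNA, or of RNA of these other cells, in the members' values was not tested.

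**Figure D4:**
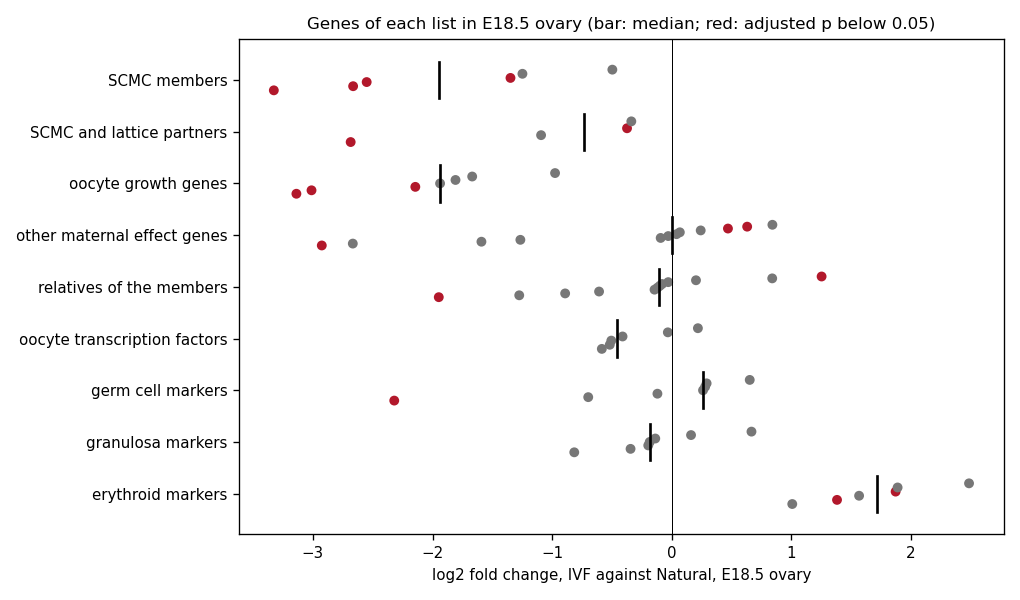
log2 fold change of each tested gene of 9 lists in E18.5 ovaries, IVF against Natural, with a black bar at the median of each list and red for an edgeR adjusted p below 0.05. Members and oocyte growth genes lie below 0 with medians of -1.95 and -1.94, germ cell markers have a median of 0.26, and erythroid markers lie above 0.

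In 12-week ovaries the members lay on the other side of 0. All 6 had positive fold changes, with a median of 0.41 on the log2 scale against 0.01 over all genes, but 0 were called in edgeR, which called 0.00567% of 17628 genes (1 gene). At an unadjusted p below 0.05 there were 2544 genes, 1 of them a member. DESeq2 called 633 genes and 0 members.

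Zbed3 was that member, at 95.2, 124, 114 and 138 CPM in Natural and 109, 168, 201, 176 and 130 CPM in IVF ovaries. In 3 IVF ovaries it exceeded every Natural value. The log2 fold change was 0.41 ± 0.18 (SE, p = 0.0479, edgeR adjusted p = 0.342). Nlrp5 was at 12.7, 30.7, 17.0 and 29.5 CPM in Natural and at 19.8, 30.0, 48.3, 40.5 and 24.8 CPM in IVF ovaries, with a log2 fold change of 0.53 ± 0.33 (SE, edgeR adjusted p = 0.475).

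The other members gave log2 fold changes between 0.40 and 0.42, with edgeR adjusted p between 0.377 and 0.639. Natural 1 and Natural 3 were the lowest Natural ovaries for all members, and IVF 3 and IVF 4 were the highest IVF ovaries for each, with IVF 4 the shallowest at 2839022 counts. Oocyte growth genes again had the members' sign, with 9 of 9 positive and a median of 0.49. This was not particular to oocyte genes. Granulosa markers had 8 of 9 positive and a median of 0.70, and luteal and theca markers 6 of 6 and 0.24. Cumulus and erythroid markers had medians of -0.31 and -0.18. The summed level of oviduct and epithelium markers was 3482 to 7750 CPM in Natural and 96.9 to 3095 CPM in IVF ovaries, without overlap. Of these 8 markers 0 were called in edgeR, all 8 had negative fold changes, and their part in the members' values was not tested.

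In 39-week ovaries 0 members were called, where edgeR called 0.262% of 17186 genes (45 genes) and 3303 genes had an unadjusted p below 0.05. DESeq2 called 1128 genes and 0 members. Zbed3 came nearest, at 72.8, 104, 103, 105 and 92.3 CPM in Natural and 128, 143, 91.0, 165 and 128 CPM in IVF ovaries. Of the IVF ovaries, 4 lay above every Natural one, and the log2 fold change was 0.46 ± 0.16 (SE, 95% confidence interval 0.11 to 0.81, edgeR adjusted p = 0.173).

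At 39 weeks Ooep had means of 7.91 ± 1.87 CPM in the Natural group and 10.9 ± 3.09 CPM in the IVF group (SD, n = 5 each), a log2 fold change of 0.47 ± 0.24 (SE, edgeR adjusted p = 0.313). Nlrp5, Tle6, Padi6 and Khdc3 had log2 fold changes of -0.05, -0.10, 0.07 and 0.15, each smaller than its SE of 0.22, 0.13, 0.23 and 0.26. The sum of oviduct and epithelium markers was 54.9 to 239 CPM in Natural and 71.7 to 8847 CPM in IVF ovaries, and its part was not tested.

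**Figure D5:**
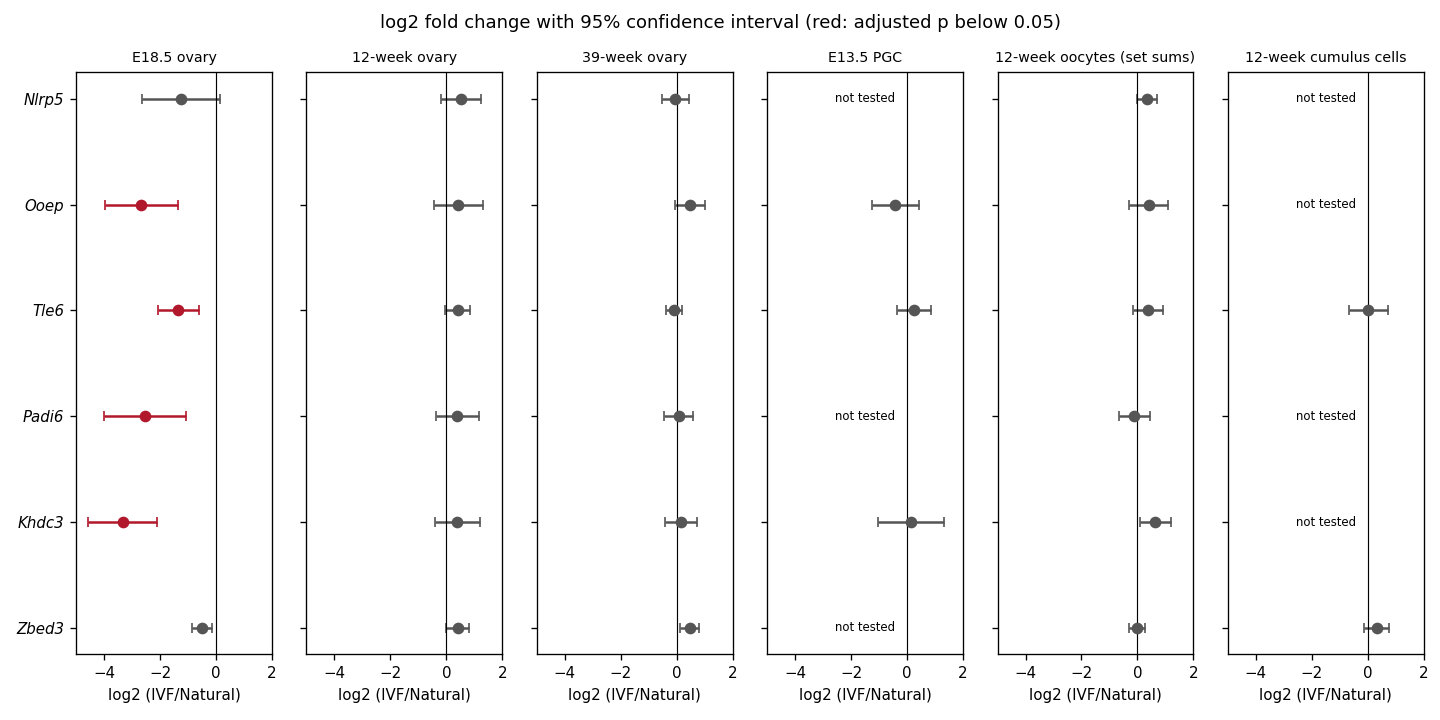
log2 fold change of each member, IVF against Natural, with its 95% confidence interval in 6 tables, in red where the edgeR adjusted p is below 0.05. At E18.5 all points lie below 0 and 4 are called, at 12 weeks all points for the ovary lie above 0 and none is called, and members under the expression filter are marked as not tested.

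A joint fit of the 29 ovaries asked whether the IVF difference itself changed with age, over 19724 genes. Khdc3 and Tle6 were called: the log2 fold change at 12 weeks exceeded that at E18.5 by 3.76 ± 0.67 for Khdc3 and by 1.77 ± 0.39 for Tle6 (SE, edgeR adjusted p = 0.037 and 0.0492). Of all genes, 0.274% were called in this direction. Ooep, Padi6, Zbed3 and Nlrp5 had differences of 3.11, 2.98, 0.93 and 1.80, all positive, with edgeR adjusted p of 0.0766, 0.0972, 0.109 and 0.292. These differences combine the lower values at E18.5 with the higher ones at 12 weeks, and age went with the sequencing table, so table and age cannot be told apart for levels.

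The count of 2 members in this joint fit was not stable. It was 0 without E18.5 Natural 4, 12-week Natural 1, Natural 3 or Natural 4, or 12-week IVF 3, and DESeq2 called 5 members. It was 1, with Khdc3 alone called, without any of 16 ovaries: Natural 2, IVF 1, IVF 2, IVF 4 or IVF 6 at E18.5, IVF 1 or IVF 4 at 12 weeks, and Natural 1 to 5 or IVF 2 to 5 at 39 weeks. Between 12 and 39 weeks 0 members were called for a change of the IVF difference, against 2.71% of genes in edgeR (534 genes), and DESeq2 also called 0 members. The log2 differences ran from -0.58 for Nlrp5 to 0.05 for Zbed3.

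Age in Natural ovaries alone was compared in the same fit. Nlrp5 fell by 2.11 and Tle6 by 1.36 on the log2 scale from E18.5 to 12 weeks (SE 0.60 and 0.30, edgeR adjusted p = 0.00486 and 0.00051), where 24.3% of genes were called lower. Ooep and Padi6 had differences of -0.92 and -1.05, Khdc3 of 0.91 and Zbed3 of -0.06, and none of these was called. Between 12 and 39 weeks, where edgeR called 21.6% of genes in either direction, 0 members were called, in DESeq2 likewise, with log2 differences from -0.86 for Khdc3 to 0.25 for Tle6.

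PGCs at E13.5 had little of the complex's transcripts beyond Ooep and Tle6. The expression filter kept 3 of the 6 members, and 0 were called, as edgeR called 0% of the 12763 genes while 349 had an unadjusted p below 0.05. DESeq2 called 0 members too. Ooep was at 8.84, 7.41, 17.3 and 19.1 CPM in Natural and 12.7, 5.02, 9.53, 10.8 and 10.9 CPM in IVF libraries. Tle6 averaged 21.5 ± 6.27 CPM and 25.5 ± 7.00 CPM, and Khdc3 2.37 ± 0.37 CPM and 2.66 ± 1.26 CPM (SD, n = 4 Natural and 5 IVF). Their log2 fold changes were -0.42 ± 0.39 for Ooep, 0.25 ± 0.29 for Tle6 and 0.15 ± 0.54 for Khdc3 (SE, edgeR adjusted p = 1 for each).

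Nlrp5 had 2 counts in 1 Natural and in 1 IVF library of PGCs and 0 in the others, and Padi6 had 0 to 2 counts. A count of 0 allows up to 3 counts, or 0.687 CPM in the shallowest Natural and 0.543 CPM in the shallowest IVF library. Zbed3 also missed the filter, yet its groups did not overlap: it had 5, 22, 20 and 10 counts in Natural and 4, 2, 2, 4 and 0 counts in IVF libraries, or 1.23 to 3.56 CPM and 0 to 0.685 CPM. Of the genes tested, 0.423% lay lower in IVF without overlap. In a fit with no filter on low counts, its log2 fold change was -2.63 ± 1.13 (SE, p = 0.0233, edgeR adjusted p = 0.688).

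Among the members, cumulus cell libraries held mainly Zbed3 and Tle6. These 2 members passed the filter, and 0 were called, where edgeR called 0.00973% of 10280 genes (1 gene), 625 had an unadjusted p below 0.05, and DESeq2 called 31 genes and 0 members. Tle6 was at 7.93, 15.4, 13.6, 10.7 and 7.19 CPM in Natural and 13.7, 13.3, 3.43, 11.4 and 13.7 CPM in IVF libraries, a log2 fold change of 0.02 ± 0.33 (SE, edgeR adjusted p = 0.999). Zbed3 was at 15.4, 10.3, 31.4, 33.4 and 31.7 CPM in Natural and 60.9, 42.7, 42.2, 14.4 and 8.72 CPM in IVF libraries. The summed level of oocyte growth genes was 0.856 to 34.6 CPM in Natural and 0 to 61.6 CPM in IVF libraries. The part of oocyte RNA in the members' values here was not tested.

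Zbed3 in cumulus cells lay with the library set, which the fit held as a covariate. The numbered pools, Natural 1 and 2 and IVF 4 and 5, had 8.72 to 15.4 CPM, and the other libraries had 31.4 to 60.9 CPM. With the set in the fit its log2 fold change was 0.32 ± 0.21 (SE, edgeR adjusted p = 0.875). Khdc3 showed the reverse, with 3.23 to 6.73 CPM in the pools and 0 to 1.23 CPM in the others. Nlrp5, Ooep and Padi6 had at most 12 counts in any library. One Natural library, replicate 5, has name fields that match those of an IVF oocyte set, and without it the fold change of Tle6 was -0.08 on the log2 scale.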

How the data were processed

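The authors deposited 7 tables of raw counts, one whole number for each gene and library, for 143 libraries of 151 records. The submitters' processing notes name Trimmomatic 0.32, STAR 2.3.0e, featureCounts 1.5.0, DESeq2 and the build mm10. For the low-input libraries the methods name trimgalore, STAR and featureCounts. PGC, oocyte and cumulus libraries were made with a modified SMART-seq protocol and ovary libraries with a stranded mRNA kit, so levels also differ by protocol. Between 55.4% and 79.0% of nonzero counts in a library were even numbers, and the cause was not tested. Limits read directly from low counts cover counting error only. The confidence intervals of fold changes come from the edgeR fits and include the spread between libraries.

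Counts were scaled by TMM and tested by edgeR's quasi-likelihood method (version 4.0.16 in R 4.3.3) after filterByExpr. P-values were adjusted by Benjamini-Hochberg over every gene kept, and the threshold was 0.05. A prior of 2 CPM was added where CPM values themselves were put on the log2 scale outside the fits. It was not part of the log2 fold changes, which came from the edgeR fits, or of the log2 ratios of CPM in 39-week oocytes. Intervals are at 95%. Tests were two-sided. 12-week oocytes were summed by library set, 39-week oocytes were compared by mean CPM without a test, over the genes that filterByExpr kept, and cumulus cells were fitted with the library set as a covariate. A joint fit of the ovaries gave the contrasts of age. DESeq2 1.42.0, limma 3.58.1, RLE size factors, no filter on low counts, the replicate block, and leaving out each library were alternatives. The fits were also run on simulated counts with the same spread for every gene. That setting does not match the wider spread of several members among E18.5 ovaries.

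The members and gene lists were chosen with earlier results of these data known. Named were all members and the 6 genes most like the members' mean. For lists whose genes are named, the 2 genes with the lowest p in a comparison were taken. Where there was no test, the 2 with the largest ratio were taken. Other lists are given as counts or sums only, or not at all. Zp3, Dnmt3a, Tle2, and Gdf9, Mos, Spin1 and Btg4 in single oocytes were named after their values were seen. Exon lengths came from GENCODE vM21, and promoter windows from RefSeq, in which all 6 members matched. Tle6 had under 100 bases of window outside exons and is not shown. Figures were drawn with matplotlib 3.10.9. Cumulus cells at 39 weeks were not used here.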

Additional observations from a re-analysis of the deposited data

Results flagged for a closer look

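The difference between the IVF effect at 12 weeks and at E18.5 in ovaries passed the edgeR test for Khdc3 (3.76 on the log2 scale, adjusted p = 0.037) and Tle6 (1.77, adjusted p = 0.0492). Khdc3 went from a log2 fold change of -3.33 at E18.5 to 0.40 at 12 weeks, and Tle6 from -1.35 to 0.41.

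Single libraries stood far from the others of their group, by Dixon's 95% limits, in 6 of 84 groups of 4 to 10 libraries or summed oocyte sets. About 1 in 20 groups of independent normal values would be flagged so. That rate does not hold for counts near 0 or for genes read from the same libraries. Ooep reached 2390 CPM in IVF replicate 1 of the 39-week oocytes, and the nearest oocyte had 1273 CPM. Tle6 was at 3.43 CPM in IVF replicate 3 of the cumulus cells, and the nearest library had 11.4 CPM. The other 4 were genes near 0, with the rest of the group at 0: Nlrp5 at 0.491 CPM in Natural replicate 1 and at 0.296 CPM in IVF replicate 1 of the PGCs, Padi6 at 0.439 CPM in Natural replicate 4 of the PGCs, and Nlrp5 at 0.389 CPM in Natural replicate 4 of the cumulus cells. Each of these 4 rests on 2 counts, and a single value among zeros always passes the limit.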

How the results depend on the processing

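The main limits are the spread among E18.5 ovaries, the single tables per age, the unknown number of females behind oocyte sets, and low counts of Khdc3 in IVF fetal ovaries. DESeq2, RLE size factors and no filter on low counts each called 4 members at E18.5. Same-numbered Natural and IVF libraries did not all deviate together (correlations of deviations -0.18 to 0.02 at E18.5, -0.44 to 0.29 and 0.02 to 0.38 in 12- and 39-week ovaries, -0.10 to 0.62 in PGCs and -0.36 to 0.21 in cumulus cells). The number was therefore not used as a block in the main fits. Whether libraries of the same number share more than that number cannot be told from these values. With the replicate number as a block, 0 members and 3 genes were called at E18.5, 0 genes in 12-week ovaries, 24 in 39-week ovaries and 24 in cumulus cells, where Tle6 turned to -0.00057 on the log2 scale. With IVF 2 and IVF 4 both left out, chosen after seeing the data, 0 members and 5 genes were called at E18.5.

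Counts of all genes called moved with the tool: DESeq2 called 1856 at E18.5, 633 and 1128 in 12- and 39-week ovaries, 55 in 12-week oocytes, 31 in cumulus cells, 336 genes and 5 members for the IVF effect at 12 weeks minus at E18.5, and 1531 genes for 39 minus 12 weeks, where Ooep turned to -0.0019. Without a filter on low counts the numbers were 9 in 12-week ovaries, 28 in 39-week ovaries, 19 in 12-week oocytes, 104 in cumulus cells, and 16 genes and 1 member for the effect at 12 weeks minus at E18.5, for which RLE size factors gave 29 genes and 1 member. Cumulus cells had 0 calls without the library set and 5 without Natural replicate 5, where Tle6 was -0.080. In 12-week oocytes Padi6 turned to 0.027 when summed by the first name field and Zbed3 to 0.041 with limma on mean CPM, and in 39-week oocytes Ooep turned to -0.27 with medians.

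Leaving out each library in turn gave 1 to 4 members and 313 to 1973 genes at E18.5, 1 to 5 genes in 12-week ovaries, 0 to 123 in 39-week ovaries, 1 to 8 in 12-week oocytes, 1 to 5 in cumulus cells, 0 to 3 members and 0 to 96 genes for the effect at 12 weeks minus at E18.5, and 80 to 1111 genes for 39 minus 12 weeks. Log2 fold changes that crossed 0 in this way ranged from -0.15 to 0.085 for Nlrp5, -0.062 to 0.25 for Padi6 and -0.0013 to 0.35 for Khdc3 in 39-week ovaries, -0.11 to 0.31 for Khdc3 in PGCs, -0.28 to 0.045 for Padi6 and -0.097 to 0.065 for Zbed3 in 12-week oocytes, -0.12 to 0.25 for Tle6 in cumulus cells, -0.19 to 0.090 for Zbed3 between E18.5 and 12 weeks, and, for the effect at 39 minus 12 weeks, -0.19 to 0.25 for Ooep and -0.058 to 0.16 for Zbed3. Over all alternatives, 1111 of the members' values kept direction and side of the threshold, 54 fell short of it, 41 changed sign and 5 newly passed it. The cause of these shifts was not tested.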

Other observations

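Over the 14 groups, the genes whose mean log2 CPM was most like the mean of the 6 members, among 13830 genes reaching 10 CPM in some group, were Tnfsf13b (Pearson's r = 0.986), Cnppd1 (0.983), Kif17 (0.983), Fbxw4 (0.982), Paqr6 (0.982) and Izumo1r (0.981), which encodes the egg receptor for sperm. The members themselves had values from 0.876 for Khdc3 to 0.987 for Padi6. The groups share tables and protocols, so these coefficients are descriptions.

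Khdc1c, a KH-domain relative of Khdc3 and Ooep, differed widely between 39-week oocytes of the groups. It was at 2.35 to 28.9 CPM in 9 Natural and at 98.8 to 389 CPM in 10 IVF oocytes, at a ratio of means of 4.01 on the log2 scale. No test was made, since no label names the females. In 12-week oocytes its sets overlapped, at 15.3 to 723 CPM in Natural and 14.7 to 502 CPM in IVF, with a log2 fold change of -0.31 ± 1.20 (SE, edgeR adjusted p = 0.981). Khdc1c has near-identical relatives between which reads may be split, so its values are uncertain. Among other maternal effect genes in 39-week oocytes, the log2 ratios of means furthest from 0 were 1.09 for Dnmt1, the maintenance DNA methyltransferase, and -0.99 for Zar1, an RNA-binding protein of the oocyte.

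Partners of the complex in 12-week oocytes included Cfl1, at 91.6 ± 21.1 CPM in Natural and 39.4 ± 11.5 CPM in IVF (SD, n = 5 sets each). Its log2 fold change was -1.22 ± 0.22 (SE, edgeR adjusted p = 0.146), and it was higher by 0.25 on the same scale in 39-week IVF oocytes.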
